A study of Mus musculus with 5 samples.

Results

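The genes described here are the zinc finger genes of the mouse Zfp series, meaning genes whose symbol begins with Zfp followed by a digit. They were measured by RNA immunoprecipitation and microarray hybridisation (RIP-chip) in R1 cells, a line of male mouse embryonic stem cells of 129X1 x 129S1 origin. Of 342 such genes with a probe set paired with 1 symbol, 253 reached the level filter and are called members, out of 11502 genes kept from the whole array. The filter asked that the brightest probe set of the gene have a mean log2 value of at least 5.76 over the 5 arrays, a limit set at the median over all probe sets. Members were thus chosen by their mean log2 values, which use every array; these levels are description only. The symbols Zfp42, Zfp352, Zfp36, Zfp36l1 and Zfp36l2 were left out by rule, and 89 genes lay below the filter. A further 36 probe sets carry a Zfp symbol together with other symbols and were not used.

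There were 5 groups of 1 array each. Anti-FLAG RIP from FLAG:MKRN1 lysate was set against 2 control RIPs, with anti-FLAG from FLAG:Ctrl lysate and with IgG from FLAG:MKRN1 lysate, and the inputs of both lysates were hybridised as well. Cells of the FLAG:MKRN1 line constitutively expressed a 3xN-FLAG:MKRN1 fusion protein from a pCAGGS construct, and cells of the FLAG:Ctrl line expressed the pCAGGS 3xN-FLAG construct without MKRN1. Both lines are G418-resistant clones that were grown in LIF and serum, first on mouse embryonic fibroblast feeders and then on gelatin, with no other treatment. MKRN1 is a makorin, a RING-domain ubiquitin ligase with RNA-binding zinc fingers of another kind than those of the Zfp series. With 1 array per group no value has a replicate error and no test can be run, so every difference below is a description of these 5 arrays, and p-values are not given. In bulk lysates, fewer cells that express a gene and less of its RNA per cell cannot be told apart.

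Most Zfp genes encode DNA-binding proteins with arrays of zinc fingers held by cysteine and histidine pairs. Many carry a KRAB domain, which recruits the co-repressor Trim28 and through it the histone methyltransferase Setdb1, and in embryonic stem cells this system keeps retroelements and the silent copies of imprinted genes repressed. Others act outside transcription, in ribosome assembly, RNA processing or the mitotic spindle. Many of these genes lie in clusters of close copies, so the signal of one probe set may come in part from a relative.

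The arrays themselves set limits on these values. Mkrn1 had a log2 value of 11.71 in the FLAG:MKRN1 input, with 11.80 in that of FLAG:Ctrl cells, so its level does not separate the lines. Directions therefore rest on the labels, and the name MKRN1-labelled RIP is used for the anti-FLAG array of that lysate. Its array stood apart: over the members it correlated with the other 4 arrays at Pearson's r of 0.870 to 0.898, whereas r was 0.957 to 0.979 among the others. These r values run across genes, which are not independent replicates. Member values also spread less on it (SD 1.16) than elsewhere (SD 1.19 to 1.27). All 6 stem cell markers checked (Pou5f1, Sox2, Nanog, Esrrb, Tdgf1 and Dppa5a) were above the filter on every array. Of 5 fibroblast markers with a probe set, 4 were kept by their means. Col1a1, Col1a2 and Thy1 were above the filter on every array, and Postn was below it on every array. Col3a1 was above it in the MKRN1-labelled RIP (5.98) and the FLAG:Ctrl input (5.81) only. The summed level of the 5 markers, as log2, was 9.62 in the MKRN1-labelled RIP, 9.48 in the FLAG:Ctrl RIP and 9.15 in the IgG RIP. In the inputs it was 9.53 (FLAG:MKRN1) and 10.25 (FLAG:Ctrl). The FLAG:Ctrl input was highest, mainly through Thy1, at 8.89 in the FLAG:MKRN1 input and 9.88 in that of FLAG:Ctrl cells. The other markers differed little between the inputs (FLAG:MKRN1 minus FLAG:Ctrl). Col1a1 differed by -0.10, Col3a1 by -0.07, Col1a2 by -0.03 and Postn by 0.00. The part of feeder RNA in any Zfp value was not tested.

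Just inside the filter lay Zfp658, Zfp850 and Zfp579, each with a mean of 5.76, and just outside lay Zfp867 at 5.75, Zfp820 at 5.74 and Zfp366 at 5.74. Among members the highest means belonged to Zfp330, a nucleolar protein gene, at 12.32, Zfp57 at 10.96, Zfp938 at 10.86, Zfp706 at 10.74 and Zfp207 at 10.58. Levels of different probe sets do not rank the amounts of RNA. For 5 members the mean of the 4 other arrays was below the filter, so the MKRN1-labelled RIP brought them in. On the arrays as deposited, some values repeat exactly. The MKRN1-labelled RIP and the FLAG:Ctrl RIP had equal values (within 1e-06) for 8.30% of members, and the control RIPs did so for 18.6%. The genes Zfp607b, Zfp729b, Zfp385a, Zfp239 and Zfp367 had the same value on all 5 arrays, so a difference of 0 there may reflect the authors' processing, of which no account was found.

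Set against both control RIPs, more Zfp genes were lower in the MKRN1-labelled RIP than higher. A gene was called lower when it was at least 2-fold (a log2 difference of 1) below both control RIPs and below the FLAG:MKRN1 input, and higher by the mirror rule. Of 253 members, 19 were called lower (7.51%), where 5.36% of all kept genes were, and 3 were called higher (1.19%), where 1.09% of all kept genes were. Of the 3 called higher, 2 (Zfp672 and Zfp784) passed the level filter only through the MKRN1-labelled RIP in which they are high, so nothing is read from that share; 0 of the 19 called lower did. Without regard to size, 134 members (53.0%) lay below both control RIPs and 64 (25.3%) above both, against 44.4% and 34.6% of all kept genes. Both differences use the same MKRN1-labelled array, so they are not independent.

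Median differences were small beside the spread of single genes. Against the FLAG:Ctrl RIP the members had a median log2 difference of -0.08 with quartiles of -0.53 and 0.11, and all kept genes had -0.03 with quartiles of -0.42 and 0.19. Against the IgG RIP the median was -0.08 for members, with quartiles of -0.58 and 0.07, and -0.00 for all kept genes, with quartiles of -0.41 and 0.19. At least 2-fold lower than the FLAG:Ctrl RIP were 25 members (9.88%, with 7.11% of all kept genes), and 3 were higher (1.19%, with 1.62%). Against the IgG RIP 29 members were lower (11.5%, with 6.94%) and 4 higher (1.58%, with 1.53%). The direction of the medians depends on scaling. Centring each array on its median over all probe sets moved the median of all kept genes against the FLAG:Ctrl RIP to -0.23 and that of members to -0.28, and centring on the kept genes moved them to 0.14 and 0.084. Centring moves all genes alike, so the members' median lay below that of all kept genes by the same amount each time. Higher genes made up 10.7% of the members at least 2-fold from the FLAG:Ctrl RIP as deposited, 20.8% after removal of the trend with level and 29.6% with arrays centred on kept genes, and for the IgG RIP the last share was 29.2% in place of 12.1%. Over all kept genes the same shares were 18.5%, 37.3% and 36.6% for the FLAG:Ctrl RIP. For the IgG RIP they were 31.8% in place of 18.1%. As deposited, the higher members include Zfp672 and Zfp784, which passed the level filter only through the MKRN1-labelled RIP. Nothing is therefore read from the members' shares.

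**Figure D1:**
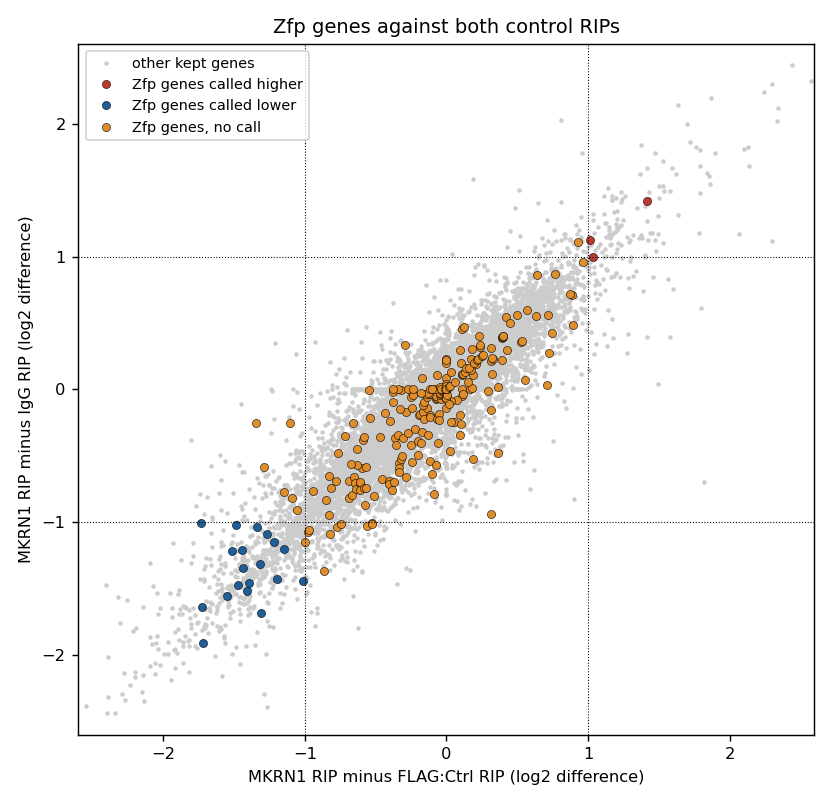
Log2 difference of the MKRN1-labelled RIP from each control RIP, FLAG:Ctrl (horizontal) and IgG (vertical), for each gene, with dotted lines at 2-fold. The 19 Zfp genes called lower lie in the lower left corner and the 3 called higher in the upper right, and 20 other genes lie outside the axes.

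Zfp580 had the highest score among members. The score is the smaller in size of the differences from both control RIPs, or 0 where these have opposite signs. The log2 value of Zfp580 was 9.84 in the MKRN1-labelled RIP, 8.42 in the FLAG:Ctrl RIP, 8.42 in the IgG RIP, 8.41 in the FLAG:MKRN1 input, with 7.99 in that of FLAG:Ctrl cells, so it was 2.68-fold above each control RIP. The MKRN1-labelled RIP stood above the other 4 arrays, of which the FLAG:Ctrl input was lowest. With the input of its own lysate first taken from each RIP the score of Zfp580 was 0.99, just short of a call, because the FLAG:Ctrl input was low.

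Both of the other calls were close to the threshold. Zfp672 was at 6.82 in the MKRN1-labelled RIP, against 5.81 in the FLAG:Ctrl RIP, 5.70 in the IgG RIP and 5.74 in the FLAG:MKRN1 input, a score of 1.01. Its dimmer probe set, which lay below the filter, scored -0.30. Zfp784 was at 6.68 in the MKRN1-labelled RIP, against 5.64 in the FLAG:Ctrl RIP, 5.68 in the IgG RIP and 5.75 in the FLAG:MKRN1 input, a score of 1.00. Over the 4 other arrays the mean was 5.69 for Zfp672 and 5.75 for Zfp784, both below the filter, so these genes are members only because of the value that made the call. Both fell short of 2-fold after quantile normalization (0.92 for Zfp672 and 0.91 for Zfp784), after centring on all probe sets (0.81 and 0.82) and after removal of the trend with level (0.87 for each). After quantile normalization 3 members were called higher too (1.19%, with 1.59% of all genes kept there). Of these, 1 (Zfp580) was among the 3 as deposited. Next in order came Zfp771 (score 0.96), Zfp513 (0.93), a gene known from retinal development in humans, Zfp444 (0.76), which encodes a SCAN domain protein, Zfp949 (0.72) and Zfp607a (0.71), none of them called.

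Zfp292 had the lowest score. It encodes a very large zinc finger protein whose human counterpart is a neurodevelopmental disorder gene. Its log2 value was 6.74 in the MKRN1-labelled RIP, 8.46 in the FLAG:Ctrl RIP, 8.65 in the IgG RIP, 8.66 in the FLAG:MKRN1 input, with 8.64 in that of FLAG:Ctrl cells. The MKRN1-labelled RIP was thus 3.29-fold below the FLAG:Ctrl RIP, 3.75-fold below the IgG RIP and 3.79-fold below its input, while the other 4 arrays lay close together. Zfp980 came next, at 6.33 in the MKRN1-labelled RIP against 8.06 in the FLAG:Ctrl RIP and 7.97 in the IgG RIP. Its FLAG:MKRN1 input was already lower, at 7.15 against 7.85 in the FLAG:Ctrl input. Zfp980 shares other probe sets with a cluster of close copies, so its value is uncertain.

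The start regions of these 4 genes, 250 bases before to 50 after the first start listed by RefSeq on GRCm38.p6, are shown because the genes hold the highest and the lowest scores. Capitals mark CG dinucleotides, which crowd in the promoters of most widely used genes. The Zfp580 region is chr7:5051282-5051581 (plus strand), the Zfp672 region chr11:58323316-58323615 (minus strand), the Zfp292 region chr4:34882899-34883198 (minus strand) and the Zfp980 region chr4:145670447-145670746 (plus strand).
Zfp580: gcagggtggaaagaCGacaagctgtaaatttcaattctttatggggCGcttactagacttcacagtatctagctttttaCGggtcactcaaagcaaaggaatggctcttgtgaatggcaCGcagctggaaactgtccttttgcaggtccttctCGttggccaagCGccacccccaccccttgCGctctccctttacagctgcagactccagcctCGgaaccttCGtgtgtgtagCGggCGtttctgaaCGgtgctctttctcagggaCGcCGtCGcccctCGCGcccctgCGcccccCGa
Zfp672: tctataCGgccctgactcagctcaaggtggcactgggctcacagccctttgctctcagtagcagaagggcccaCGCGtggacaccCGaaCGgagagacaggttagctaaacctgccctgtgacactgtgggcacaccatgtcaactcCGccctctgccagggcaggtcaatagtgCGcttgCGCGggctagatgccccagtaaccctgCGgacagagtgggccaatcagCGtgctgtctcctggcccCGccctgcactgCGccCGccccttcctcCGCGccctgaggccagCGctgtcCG
Zfp292: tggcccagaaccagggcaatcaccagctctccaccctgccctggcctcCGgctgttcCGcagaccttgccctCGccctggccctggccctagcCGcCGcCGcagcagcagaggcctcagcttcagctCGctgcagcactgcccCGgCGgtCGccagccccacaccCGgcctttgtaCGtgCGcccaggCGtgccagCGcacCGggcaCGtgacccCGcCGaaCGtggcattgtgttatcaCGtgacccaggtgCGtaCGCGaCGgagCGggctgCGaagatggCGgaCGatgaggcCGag
Zfp980: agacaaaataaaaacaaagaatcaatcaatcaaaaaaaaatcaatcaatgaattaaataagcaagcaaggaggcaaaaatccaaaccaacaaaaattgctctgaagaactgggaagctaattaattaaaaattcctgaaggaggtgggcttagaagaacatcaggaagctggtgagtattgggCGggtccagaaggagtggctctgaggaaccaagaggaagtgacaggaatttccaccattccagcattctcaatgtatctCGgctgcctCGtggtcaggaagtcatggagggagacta
The sequences hold 19, 18, 30 and 3 CG dinucleotides in that order. Zfp672 passed the level filter only through the MKRN1-labelled RIP in which it is high. Nothing is therefore read from the CG counts beside the scores. For comparison, the median was 15 over the 209 members with a listed promoter and 7 over all 32851 promoters of the table. Of the latter 94.6% hold at least 1 (99.5% of members with a promoter do). The 32851 promoters were neither filtered by level nor limited to 1 per gene, as those of members were. The medians are therefore not a like comparison. CG reads the same on both strands and overlaps no other motif searched.

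Behind these came genes that were lower by similar amounts from both control RIPs. Zfp414 was at 7.63 in the MKRN1-labelled RIP and 9.18 in each control RIP, with inputs of 9.42 (FLAG:MKRN1) and 9.26 (FLAG:Ctrl). Zfp652, which acts as a transcriptional repressor, was at 8.00 in the MKRN1-labelled RIP and 9.46 in each control RIP, and 3.12-fold below its input. Equal values in both control RIPs, as here, are among the repeats described above. Zfp207, whose product binds microtubules and the checkpoint protein Bub3 at the spindle, was at 9.37 in the MKRN1-labelled RIP, against 10.78 in the FLAG:Ctrl RIP, 10.89 in the IgG RIP, 10.92 in the FLAG:MKRN1 input, with 10.94 in that of FLAG:Ctrl cells. It has the highest mean level of the 12 lowest scores. After quantile normalization its score was -1.14 and after removal of the trend with level -1.04, in place of -1.41.

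Among the remaining low scores were a BTB-domain factor, a chromatin partner and several genes of unassigned role. Zfp317 was the one gene called lower that fell under the filter in the MKRN1-labelled RIP, at 5.68, against 7.07 in the FLAG:Ctrl RIP and 7.14 in the IgG RIP. Zfp131, which encodes the BTB-domain factor, scored -1.35, and Zfp266, a barrier to reprogramming in mouse cells, scored -1.31. Zfp609, which binds the Integrator complex and the cohesin loader, was at 6.99 in the MKRN1-labelled RIP and 8.31 in both control RIPs and the FLAG:MKRN1 input. Zfp229 and Zfp640 each scored -1.21 and Zfp51 -1.20. The dimmer probe set of Zfp640 scored 0.00, and the median over its probe sets -0.57. The others called were Zfp148, Zfp952, Zfp397, Zfp445, Zfp667, Zfp146 and Zfp57, with scores from -1.15 to -1.01.

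Of the 19 lower calls, 10 held under all 4 other scalings tried: Zfp292, Zfp980, Zfp414, Zfp652, Zfp207, Zfp317, Zfp131, Zfp266, Zfp609 and Zfp148. Of the 3 higher calls, Zfp580 did. Zfp146, Zfp445 and Zfp57 were called under 1 of the 4 scalings.

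**Figure D2:**
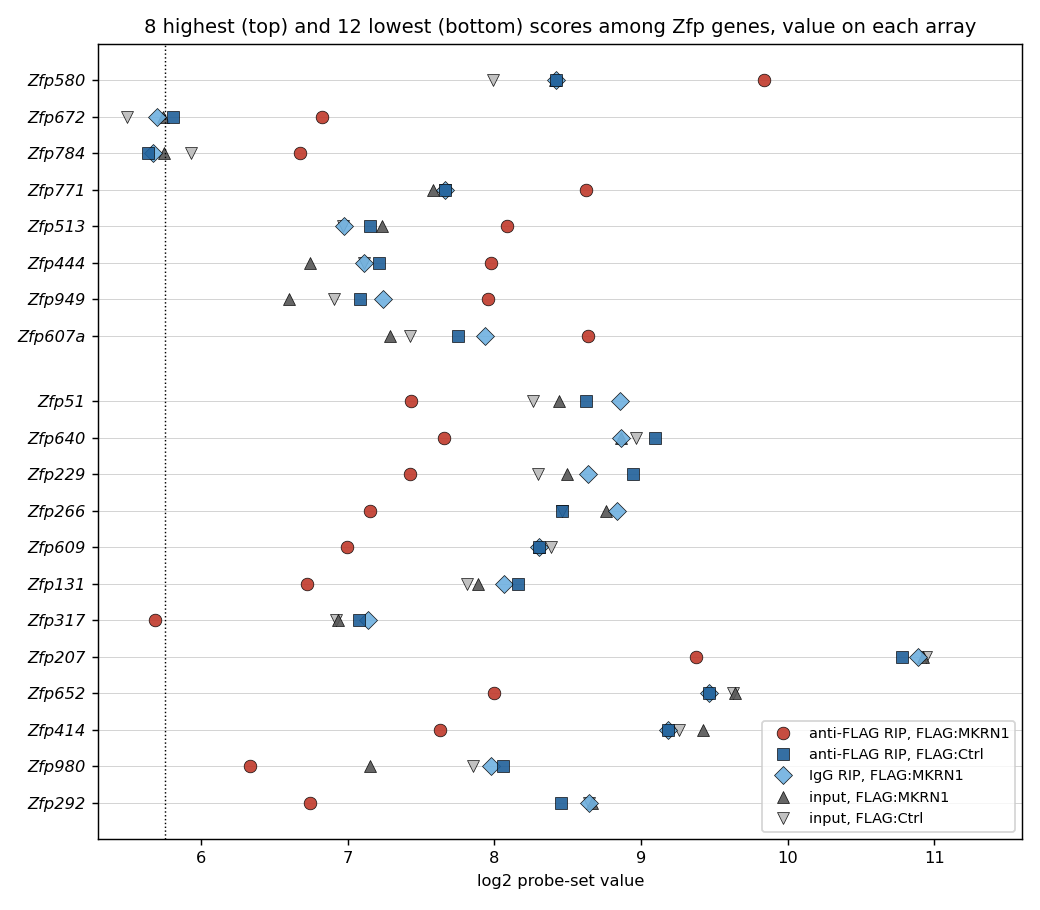
Log2 probe-set value of the 8 members with the highest scores (upper block) and the 12 with the lowest (lower block) on each of the 5 arrays, with the level filter of 5.76 dotted. In the upper block the MKRN1-labelled RIP (red circles) lies right of the other 4 arrays, and in the lower block left of them.

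Genes that guard imprints and silence retroelements had the lowest medians of the role lists. Of 8 listed, 6 had a usable probe set and 5 were members, with median log2 differences of -0.83 from the FLAG:Ctrl RIP, with -0.65 for the IgG RIP, and 2 were called lower and 0 higher (5.36% and 1.09% of all kept genes). With 5 genes, these medians rest on single members. Zfp57, Zfp568, Zfp445 and Zfp809 were bright, with mean log2 values from 8.47 to 10.96. All kept genes at the levels of the 85 brightest members had medians of -0.27 and -0.25, with 9.31% called lower. Whether the list differs from genes of its level was not tested. Zfp57, which binds methylated imprint control regions and keeps them methylated, was at 10.02 in the MKRN1-labelled RIP, 11.75 in the FLAG:Ctrl RIP, 11.03 in the IgG RIP, 10.55 in the FLAG:MKRN1 input, with 11.43 in that of FLAG:Ctrl cells. Both arrays of FLAG:Ctrl lysate were the highest for Zfp57, so its difference from the FLAG:Ctrl RIP (-1.73) was larger than that from the IgG RIP (-1.01), made of the same lysate, and the inputs themselves differed by -0.89. With own inputs taken off first, Zfp57 was not called. Zfp445, a partner of Zfp57 at imprints, was at 7.68 in the MKRN1-labelled RIP, against 9.02 in the FLAG:Ctrl RIP, 8.72 in the IgG RIP, 8.82 in the FLAG:MKRN1 input, with 8.72 in that of FLAG:Ctrl cells. Its call was lost after quantile normalization, after centring on kept genes and after removal of the trend with level. Zfp568, a repressor of placental Igf2 transcription, scored -0.65, or -0.40 on quantile-normalized arrays and -0.39 with the level trend taken out. Zfp809, which silences a class of retroviruses, scored -0.24 and Zfp819 0.00.

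SCAN domain genes, whose products pair through that domain, had medians of -0.38 against each control RIP over 9 members, with 2 called lower and 0 higher (5.36% and 1.09% of all kept genes). Zfp444, a SCAN domain gene that the list does not hold, lay higher than both control RIPs, by 0.76 and 0.87, so the list's medians leave it out. The genes called were Zfp445, which carries a KRAB domain as well, and Zfp397, at 6.16 in the MKRN1-labelled RIP, against 7.43 in the FLAG:Ctrl RIP, 7.25 in the IgG RIP and 7.44 in the FLAG:MKRN1 input. Zfp369 (score -0.57), Zfp110 (-0.38), both known as interactors of the neurotrophin receptor, and Zfp24 (-0.34) were lower than both control RIPs without a call. Of the 14 listed genes, 12 had a usable probe set; Zfp174, Zfp287 and Zfp446 lay below the filter.

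The list of zinc finger partners of chromatin complexes had all 12 genes among the members, with medians of -0.31 and -0.22 from the FLAG:Ctrl RIP and the IgG RIP. Zfp609 was the 1 called lower, and 0 were called higher (5.36% and 1.09% of all kept genes). Zfp518a, a partner of the G9a histone methyltransferase, was just short, at 6.60 in the MKRN1-labelled RIP, 7.57 in the FLAG:Ctrl RIP and 7.65 in the IgG RIP. Zfp518b was low against the FLAG:Ctrl RIP only, with differences of -1.11 and -0.25. Its inputs differed as well, by -0.77 (FLAG:MKRN1 minus FLAG:Ctrl). Zfp462, which holds heterochromatin over lineage genes in stem cells, scored -0.81, or -0.53 after quantile normalization, Zfp516 -0.36 and Zfp644, which recruits G9a and its partner enzyme, -0.34.

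Genes tied to the stem cell state gave 1 lower call, Zfp207, among 7 members, where 5.36% of all kept genes were called lower. Their medians were -0.25 and -0.05. Zfp281, a partner of Nanog, had 9.38 in the MKRN1-labelled RIP, 9.38 in the FLAG:Ctrl RIP, 9.18 in the IgG RIP, 9.38 in the FLAG:MKRN1 input, with 9.53 in that of FLAG:Ctrl cells. Zfp706, which takes part in the exit from self-renewal, scored -0.05, Zfp322a, an activator of pluripotency genes, scored -0.32, and Zfp296 and Zfp217 scored 0.00. Apart from Zfp207 and Zfp462, these genes lay within a log2 distance of 0.52 of each control RIP. On the list known from differentiation 7 of 9 genes were members, with medians of -0.19 and -0.04. Zfp292 and Zfp148 were called lower, where 5.36% of all kept genes were. Zfp148 was at 7.06 in the MKRN1-labelled RIP, 8.28 in the FLAG:Ctrl RIP and 8.21 in the IgG RIP. Its inputs were 8.49 (FLAG:MKRN1) and 8.28 (FLAG:Ctrl). Zfp148 and Zfp281 are relatives that bind GC-rich DNA, and their scores were -1.15 and 0.00. Zfp503 scored 0.40, Zfp710 -0.19 and Zfp335 -0.04.

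RNA-binding and ribosome-linked members lay on both sides of the control RIPs. All 12 listed genes were members, and their medians were -0.12 and -0.04. Zfp207, which stands on this list too, was the 1 call, a lower one, where 5.36% of all kept genes were called lower. Zfp598, a ubiquitin ligase that marks collided ribosomes, was at 8.23 in the MKRN1-labelled RIP, 7.84 in the FLAG:Ctrl RIP, 7.84 in the IgG RIP, 7.75 in the FLAG:MKRN1 input, with 7.84 in that of FLAG:Ctrl cells. It was higher in the MKRN1-labelled RIP by 0.39, as was Zfp593, a factor of large ribosomal subunit assembly, by 0.40, and both are short of 2-fold. Zfp622, of the same assembly pathway, scored -0.11. Zfp638, a nuclear protein of RNA and of unintegrated viral DNA, scored -0.57, Zfp277 -0.58 and Zfp830 -0.26. Medians near 0 thus stand for genes that went both ways.

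The co-repressors that KRAB zinc finger proteins use are not members, and 4 of 20 were called lower, where 5.36% of all kept genes were, and 9.05% of those above the 75th percentile of level. Most of these co-repressors are bright. Of 23 listed genes 20 were kept, 0 were called higher, and the medians were -0.58 against the FLAG:Ctrl RIP, with -0.43 for the IgG RIP. Setdb1 was at 8.43 in the MKRN1-labelled RIP, against 10.02 in the FLAG:Ctrl RIP, 9.89 in the IgG RIP, 9.39 in the FLAG:MKRN1 input, with 9.26 in that of FLAG:Ctrl cells. Its nuclear partner Atf7ip scored -1.29, Tasor, the core of the HUSH silencing complex, -1.16 and Morc3 -1.39. Trim28 itself scored -0.42 and was not called. Dnmt1, the maintenance DNA methyltransferase, scored -0.87.

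**Figure D3:**
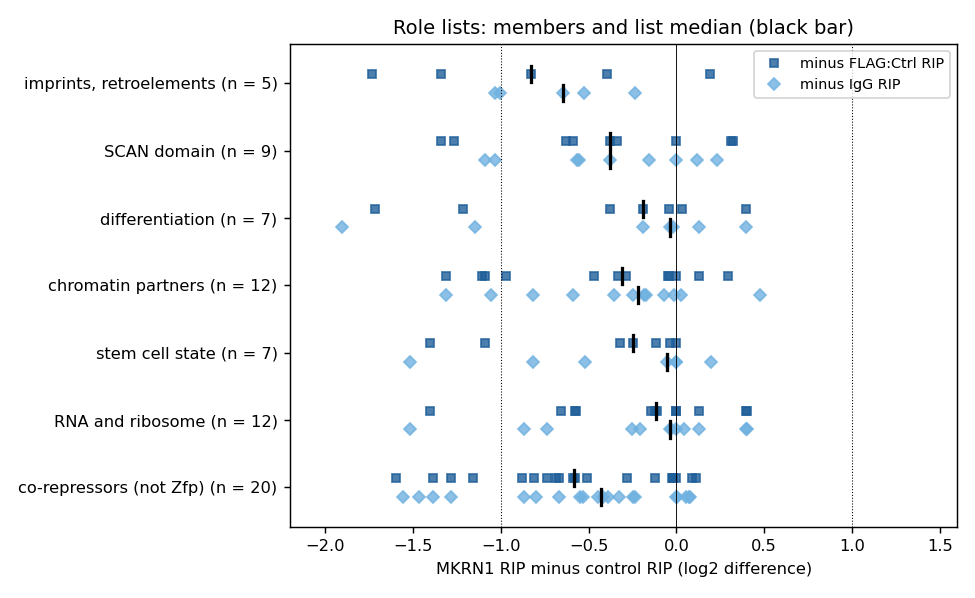
Log2 difference of the MKRN1-labelled RIP from the FLAG:Ctrl RIP (squares) and the IgG RIP (diamonds) for each kept gene of the role lists, with list medians as black bars and dotted lines at 2-fold. Imprint and retroelement genes have the lowest medians (-0.83 and -0.65), and the RNA and ribosome list lies nearest 0 (-0.12 and -0.04).

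Relative to the input of its own lysate, the MKRN1-labelled RIP spread the Zfp genes in both directions. The median log2 difference was -0.04 for members and 0.00 for all kept genes. At least 2-fold below input were 19 members (7.51%, with 5.51% of all kept genes) and at least 2-fold above it 10 (3.95%, with 2.47%). The lowest were Zfp292 at -1.92, Zfp414 at -1.80, Zfp652 at -1.64 and Zfp266 at -1.61, and all 4 were also called lower against both control RIPs.

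The 4 highest members relative to input were only in part those with the highest scores. Zfp580 and Zfp949 were among the 8 highest scores, whereas Zfp938 and Zfp825 were not. Zfp938 was at 11.69 in the MKRN1-labelled RIP, 10.79 in the FLAG:Ctrl RIP, 11.20 in the IgG RIP, 10.02 in the FLAG:MKRN1 input, with 10.62 in that of FLAG:Ctrl cells. It stood 1.67 above its input in the MKRN1-labelled RIP and 1.18 above the same input in the IgG RIP, so its score was 0.49. Zfp825 showed 1.41 and 0.85 in the same way, and its dimmer probe set scored 0.00. Zfp949 showed 1.36 and 0.64, and Zfp580 1.42 and 0.00. Only the last of these 4 was called higher.

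In the control RIPs, recovery relative to input moved less and mainly upward. The FLAG:Ctrl RIP had a median of 0.05 over members and 0.01 over all kept genes, with 4 members at least 2-fold higher (1.58%, with 0.948% of all kept genes) and 0 lower (with 0.374%). The IgG RIP had medians of 0.04 and 0.00, with 7 members higher (2.77%, with 1.32%) and 0 lower (with 0.461%). Zfp830, a splicing-linked factor needed by the early embryo, differed by 1.23, with 8.10 in the FLAG:Ctrl RIP and 6.87 in the FLAG:Ctrl input. In the IgG RIP and its input Zfp830 had 7.70 each, so this difference was not seen between the IgG RIP and its input. Zfp941 was the one member past 2-fold in both control RIPs, by 1.09 and 1.07.

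Other members at the upper end were Zfp273 (1.05) and Zfp952 (1.04) in the FLAG:Ctrl RIP, and Zfp558 (1.28), Zfp938 (1.18), Zfp882 (1.11) and Zfp740 (1.10) in the IgG RIP. At the lower end, Zfp60 (-0.69), Zfp329 (-0.66), Zfp369 (-0.52) and Zfp358 (-0.50) were lowest in the FLAG:Ctrl RIP, and Zfp341 (-0.49), Zfp386 (-0.46), Zfp420 (-0.42) and Zfp773 (-0.39) in the IgG RIP. Several of these lean on an input value that stood apart. Zfp740, for example, was at 8.80 in the IgG RIP and 7.70 in the FLAG:MKRN1 input, while the FLAG:Ctrl input was at 8.79. The control RIPs differed from each other by at least 2-fold for 2 members, Zfp941 at 1.09 (0.395%, with 0.174% of all kept genes) and Zfp119b at -1.25 (0.395%, with 0.278%), as FLAG:Ctrl RIP minus IgG RIP.

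**Figure D4:**
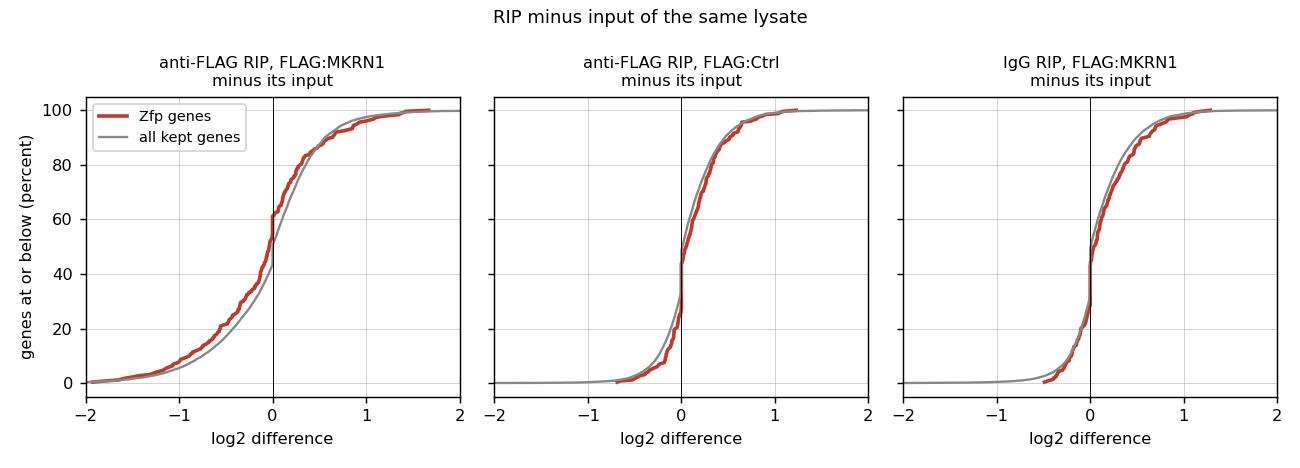
Cumulative share of genes (percent) by log2 difference of each RIP from the input of its lysate, for Zfp genes (red) and all kept genes (grey). The curve of Zfp genes lies left of the grey one below 0 for the MKRN1-labelled RIP (19 genes at least 2-fold lower) and slightly right of it for both control RIPs (0 genes at least 2-fold lower).

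Between the inputs, which hold steady-state RNA of the lines, few Zfp genes differed by 2-fold. The median difference, FLAG:MKRN1 input minus FLAG:Ctrl input, was 0.00 for members and for all kept genes, with 3 members higher (1.19%, with 0.878% of all kept genes) and 2 lower (0.791%, with 0.791%). Higher were Zfp773 (1.14), Zfp119b (1.06) and Zfp273 (1.00), followed by Zfp931 (0.92). Lower were Zfp740 (-1.09) and Zfp941 (-1.07), followed by Zfp382 and Zfp57 (-0.89 each). For Zfp57 the RIPs kept that order, with lower values in both RIPs of FLAG:MKRN1 lysate than in the FLAG:Ctrl RIP. Zfp740 kept it as well, at 8.80 in both RIPs of FLAG:MKRN1 lysate, against 9.34 in the FLAG:Ctrl RIP. Zfp941 and Zfp119b also kept the order of their inputs. Zfp382 reversed it, with 8.07 (MKRN1-labelled) and 8.12 (IgG) against 7.96 in the FLAG:Ctrl RIP. Zfp773, Zfp273 and Zfp931 kept it for the IgG RIP only. Their MKRN1-labelled values differed from the FLAG:Ctrl RIP by -0.82, -0.30 and -0.77. The RIPs thus did not repeat the input differences for every gene named. Each line is a clone with 1 input array, so differences between clones and effects of the construct cannot be told apart.

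Differences of the members went with their level. Over 253 members the Spearman correlation of mean level with the difference from the FLAG:Ctrl RIP was -0.37, and over the 11502 kept genes it was -0.39; for the IgG RIP the values were -0.32 and -0.39. The points of each correlation share the same arrays. The 85 brightest members had medians of -0.34 and -0.36 against the FLAG:Ctrl RIP and the IgG RIP, with 12 called lower and 1 higher. All 5306 kept genes at such levels had medians of -0.27 and -0.25, with 9.31% called lower and 1.07% higher. The 84 dimmest had medians of 0.00 against each, with 1 called lower and 2 higher. The 3432 kept genes at such levels had 0.10 and 0.097, with 0.379% called lower and 0.845% higher. Both higher calls among the dimmest, Zfp672 and Zfp784, passed the level filter only through the MKRN1-labelled RIP, so nothing is read from them. With the trend with level taken out, 14 members were called lower (5.53%, with 2.90% of all kept genes), of which 13 were among the 19.

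**Figure D5:**
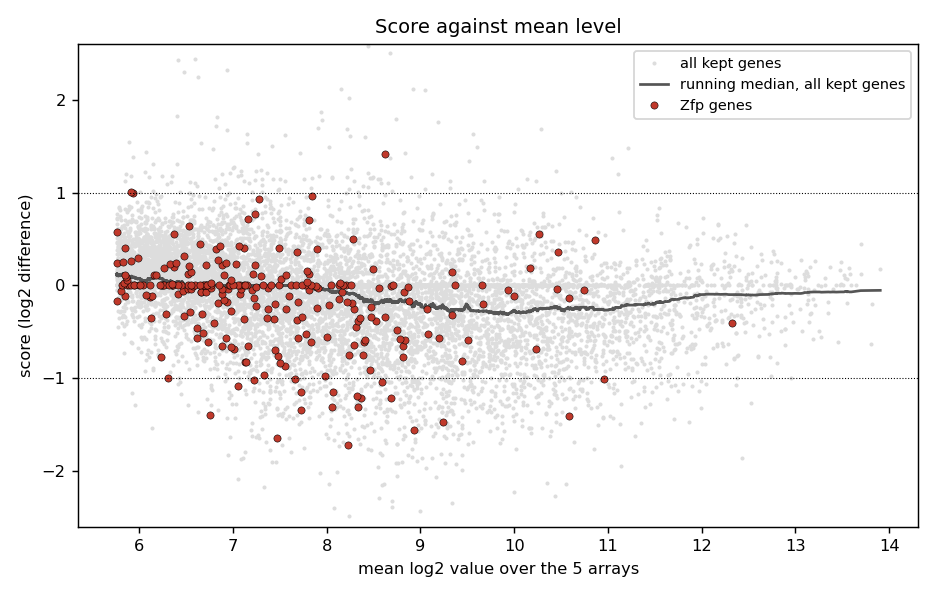
Score against mean log2 value over the 5 arrays for Zfp genes (red) and all kept genes (grey), with the running median of all kept genes and dotted lines at 2-fold. The Zfp genes follow the downward trend of all genes, many lie at exactly 0, and those called lower have mean levels from 6.75 to 10.96.

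Other traits of the genes were weaker guides. Members with another Zfp gene as a next protein-coding neighbour in RefSeq numbered 127 and had medians of -0.09 and -0.11 against the FLAG:Ctrl RIP and the IgG RIP, with 8 called lower and 3 higher. The 125 without one had medians of -0.07 and -0.05, with 10 called lower and 0 higher. Among all kept genes 5.36% were called lower and 1.09% higher. Of the 3 higher calls, 2 (Zfp672 and Zfp784) passed the level filter only through the MKRN1-labelled RIP. Nothing is therefore read from the higher counts. The length of the gene on the genome, over 252 members, had a Spearman correlation of -0.14 with the difference from the FLAG:Ctrl RIP and -0.17 with that from the IgG RIP, and over 11477 kept genes it was -0.32 and -0.31. The difference between these values was not tested, and length on the genome is not the length of the RNA. The GC content of the promoter had correlations of 0.11 and 0.19 over 209 members and -0.06 and -0.03 over 9209 kept genes.

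Probe sets of the same gene did not always move together. A second probe set above the filter was present for 7 members, and in 4 of these it had the same signs against both control RIPs as the brightest one. Zfp141 scored -0.14 with its brightest probe set and -1.25 with the other, and Zfp664 -0.69 and 0.22. Zfp407 scored -0.76 and -0.49. These genes were named for their probe sets after their values were seen.

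Relatives of the Zfp series are set side by side here, with differences untested. The 36 kept Zbtb genes, which pair zinc fingers with a BTB domain, had medians of -0.02 and -0.04 against the FLAG:Ctrl RIP and the IgG RIP, with 3 called lower (8.33%) and 1 higher. The 15 kept Zscan and Zkscan genes had medians of -0.17 and -0.10, with 0 called in either direction. Among all kept genes 5.36% were called lower and 1.09% higher.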

How the data were processed

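RNA of 5 samples, each a group of 1 array by its title, was hybridised to an Affymetrix array after biotin labelling by the maker's procedures, per the labels. The authors deposited 1 log2 value per probe set and array; the scale was read from the values, and for background correction, summarisation and normalization the methods were not given in the sources used here. Of 34760 probe sets, 21640 had 1 gene symbol in the platform annotation, 1321 several, and 11799 were not named there. The brightest probe set stood for each gene, and genes with a mean at or above 5.76 were kept. Differences of log2 values were counted at 2-fold. With 1 array per group no test was run; precision is limited by having 5 arrays. Gene neighbours, lengths and promoters came from RefSeq (GRCm38.p6), which held 252 of 253 members; promoters were listed for 209. No other coordinates are given, since no source used here names a build for the array values. The calling rule was tested on simulated data with the same noise on every array, no trend with level and no repeated values. These arrays differ from that setting, so the simulation gives no error rate for the calls here. Alternatives covered scaling, the level filter, probe sets, the fold and the use of the input; centring on the kept genes, and the gene traits compared, were chosen after seeing the data.

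Genes named were the 12 lowest and 8 highest scores, the 4 at either end of each RIP against its input and of the inputs, the 5 brightest, the 3 just inside and 3 just outside the filter, up to 5 per role list by size of score, and Zfp598; further list members, genes called and genes singled out in a sentence were added after their values were seen. The members and lists were chosen with earlier results of these data known. Computations used Python 3.11.15, pandas 2.3.3, numpy 2.4.6 and scipy 1.17.1.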

Additional observations from a re-analysis of the deposited data

Results flagged for a closer look

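For 7 members (2.77%) the anti-FLAG RIP lay at least 0.5 below its own input on the log2 scale in FLAG:MKRN1 lysate and at least 0.5 above it in FLAG:Ctrl lysate. Opposite differences of this size, in either order, were found for 1.29% of all kept genes. With 1 array per group the difference between the lysates was not tested. Zfp229 had -1.07 in FLAG:MKRN1 lysate and 0.64 in FLAG:Ctrl lysate. For Zfp931 the values were -0.88 and 0.81, for Zfp667 -0.88 and 0.60, and for Zfp952 -0.75 and 1.04. Zfp407 had -0.70 and 0.61, Zfp418 -0.60 and 0.61, and Zfp763 -0.56 and 0.88. In every one of these 7 the first value belongs to FLAG:MKRN1 lysate. For several of them the inputs differed as well, which enters both signs at once: FLAG:MKRN1 input minus FLAG:Ctrl input was 0.92 for Zfp931, 0.86 for Zfp418, 0.77 for Zfp763 and 0.63 for Zfp952. The anti-FLAG RIPs of Zfp418 differed by -0.36, MKRN1-labelled minus FLAG:Ctrl.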

How the results depend on the processing

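As deposited, 3 members were called higher and 19 lower. The higher count was 1 with arrays centred on all probe sets (0.395%, with 0.556% of all genes). It was also 1 with the level filter at the 75th percentile (1.01%, with 1.03%). With own inputs taken off first it was 1 (0.395%, with 1.03%), and with arrays centred on kept genes 5 (1.98%, with 1.65%). At 1.5-fold it was 9 and at 4-fold 0. Zfp672 and Zfp784 passed the level filter only through the MKRN1-labelled RIP, so nothing is read from the higher counts. The lower count was 45 at 1.5-fold and 0 at 4-fold, and between 13 and 27 under the other settings. At 1.5-fold 17.8% of members were lower and 3.56% higher, against 14.38% and 4.76% of all kept genes. Under the other settings that gave lower calls, 5.14% to 15.2% of members were called lower, and 2.90% to 9.05% of all genes. The number of members differs between settings. With the filter at the 75th percentile, 15 of 99 members were lower (15.2%, with 9.05% of all genes). With arrays centred on all probe sets 27 of 253 were (10.7%, with 8.42%), and with arrays centred on kept genes 13 (5.14%, with 3.52%). At 4-fold 0.139% of all kept genes were called higher and 0.200% lower. The members' medians against the FLAG:Ctrl RIP, the IgG RIP and the input were -0.08, -0.08 and -0.04; centred on kept genes they were 0.084, 0.065 and 0.0098, so their sign rests on the scaling. A filter at the 75th percentile made the medians against the control RIPs -0.34 and -0.35, and those of all genes -0.26 and -0.24. Scores of 67 named members were also recomputed under 6 settings, and 0 of those called changed sign where a score was given. Zfp672, which was called higher, had no score with the median over probe sets. Of the 67, 10 moved by more than 0.243, the SD between the control RIPs over all kept genes, after quantile normalization, 15 after removal of the trend with level and 3 of 66 with the median over probe sets. No paired analysis was possible because each group holds 1 array. The limits are those of 5 unreplicated arrays of unstated normalization, one of which stands apart, with close copies among the genes.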
